A study of Mus musculus with 44 samples.

Results

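Liver and small intestine are organs of one digestive axis with separate tasks: the liver supplies blood proteins, bile and glucose, and the small intestine digests and absorbs food behind a defended epithelium. They were compared here at baseline, in 7 vehicle-treated animals with 1 liver library and 1 small intestine library each. These 14 libraries were taken from the 44 of a study of manganese (Mn) exposure by tissue label, vehicle label and the animal number that opens each label, so that every small intestine was set against the liver of its own animal. The animals were C57BL/6J mice of about 2 months, 3 female (2572, 2628 and 2629) and 4 male (2573, 2574, 2627 and 2630) and the labels name no transgene for them. Whole tissue homogenate was used, so that every cell type of the organ contributes to a library. The repeat described at the end used 7 further animals of the same strain given hydrated Mn chloride daily at about 50 mg per kg.

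RNA was read with 3′ TagSeq, which sequences the 3′ end of polyadenylated transcripts, so that a count depends little on transcript length. Levels are given as CPM, a gene's reads per 1000000 reads of the TMM-scaled library size, and differences as log2 of small intestine over liver with their standard error (SE), so that negative values are higher in liver. Libraries held 1851623 to 2667301 reads assigned to genes in liver and 2177396 to 2945552 in small intestine. At the median scaled library size of the 14 libraries, 10 reads correspond to about 4.11 CPM. Scaled sizes were smaller in liver, so that 10 reads are more CPM in liver and fewer in small intestine. In bulk tissue, fewer cells of a type and less RNA per cell cannot be told apart. Each pair carries its own animal number, so the 7 pairs are separate animals.

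The tissue labels fitted the defining markers. All 12 hepatocyte markers were higher in liver, and all 12 enterocyte markers and 9 Paneth cell markers (cells of the crypt base that secrete antimicrobial peptides) were higher in small intestine, with no overlap between the libraries of the 2 tissues. The region of intestine sampled is not stated in the labels. Genes typical of its upper part were read: Gata4, a regulator of proximal identity, had 221 to 287 CPM (median 255) in small intestine and 29.6 to 61.1 CPM (median 44.3) in liver, and Lct, the lactase, had 116 to 309 CPM (median 172) in small intestine and 1.04 to 17.6 CPM (median 2.28) in liver. The log2 difference of Lct was 5.55, or 6.45 without animal 2630. Fabp6, the bile acid binding protein of the ileum, had 2 reads over all 7 small intestine libraries, while Fgf15 and Osr2 are listed with 0 reads in both tissues. A 0 in both tissues is not read as absence, because Cox4i1 and Rpl13, which nearly all cells use, are also listed with 0 reads. Slc10a2, the ileal bile acid uptake carrier that bile duct cells also use, had 1.0 to 4.95 CPM (median 2.7) in small intestine and 22.3 to 99.2 CPM (median 45.1) in liver, a log2 difference of −4.43 ± 0.20 (adjusted p = 7.7e-10).

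RNA typical of one organ was also read at a low level in the other, and 2 libraries stood apart. The summed hepatocyte markers in small intestine came to 1.51% to 3.09% of the level in the liver of the same animal, lowest in animal 2627. The summed Paneth markers in liver came to 0.686% to 9.84% of the level in the same animal's small intestine (median 2.33%), highest in animal 2630, whose liver library held 786 CPM of them against 76.7 to 227 CPM in the other livers. The small intestine of animal 2627 held 9581 CPM of pancreatic acinar markers, the digestive enzyme genes of the neighbouring pancreas, against 137 to 304 CPM in the other 6. Such reads enter the level of a tissue-specific gene in the other organ and with it the log2 difference, and their part in the differences was not tested. The value without an animal is given where leaving it out moved a difference by over 1.5 times.

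**Figure D1:**
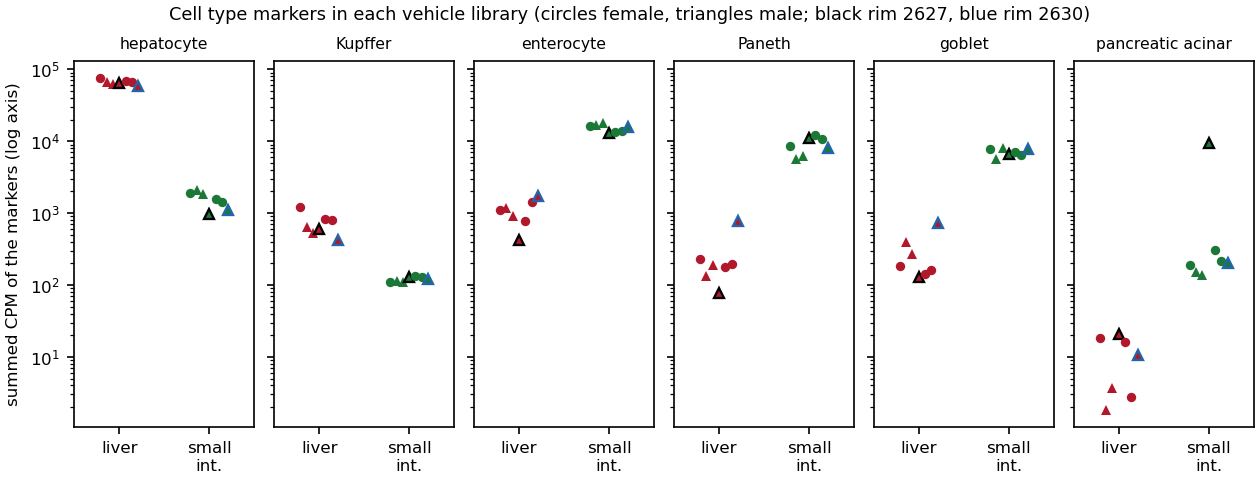
Summed CPM of 6 marker lists (log axis) in the 7 liver (red) and 7 small intestine (green) libraries, 1 point per library. Hepatocyte and Kupffer cell markers are higher in all liver libraries and gut markers in all small intestine libraries; the liver of animal 2630 has the highest Paneth markers among livers (786 CPM), and the small intestine of animal 2627 the highest pancreatic markers (9581 CPM).

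Most genes differed between the organs. Of 11777 genes tested with edgeR's paired quasi-likelihood test, 4529 (38.5%) were higher in small intestine and 4437 (37.7%) in liver, together 76.1%, at a Benjamini-Hochberg adjusted p below 0.05. Past a test against a minimum fold of 2, the numbers were 2088 (17.7%) and 1831 (15.5%), together 33.3%, and these shares are the background for the counts of each gene group below. For 5933 genes (50.4%) the libraries of the 2 tissues did not overlap. The median absolute log2 difference was 0.74 and the median of all genes 0.016. Scaling by library size alone moved that median by 0.48 towards small intestine, giving 6746 (57.3%) and 2685 (22.8%) genes, together 80.1%, so that small differences depend on the scaling. Of the named genes compared between the 2 scalings, Hnf4a, Mat2a, Creb3l3 and Hes1 changed sign and passed the test with at least 1 of them. Sign changes of genes that passed with neither scaling were not counted. All adjusted p-values below are from the paired edgeR test over all 11777 genes, and counts of group members are from the 2-fold test unless said otherwise.

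**Figure D2:**
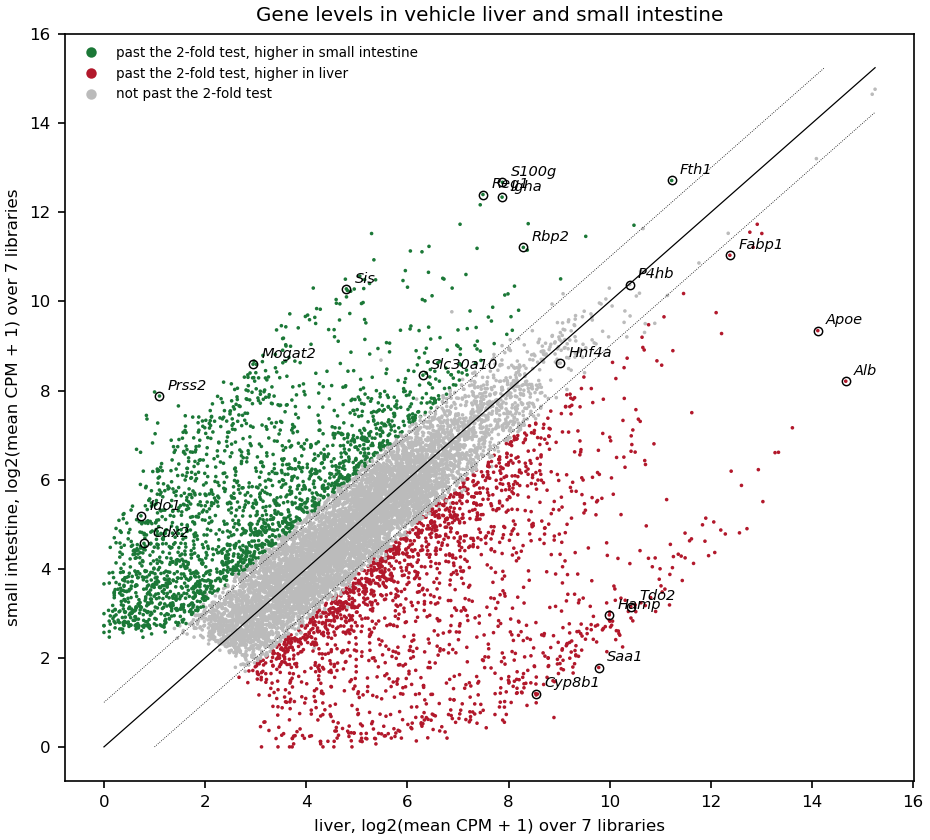
Mean level of each of the 11777 genes tested in liver (x) and small intestine (y), as log2(mean CPM + 1) over 7 libraries; colours mark the 2088 and 1831 genes past the 2-fold test, the solid line is equality and the dotted lines 2-fold. Albumin (Alb) and Apoe lie far into liver, and S100g, Reg1 and Igha far into small intestine, while P4hb and Hnf4a lie near equality.

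The transcripts that filled each library differed. After 2 mitochondrial ribosomal RNAs (mt-Rnr2 and mt-Rnr1), which led in both tissues, the liver was led by Alb, the main plasma protein, at 26031 ± 4871 CPM in liver and 295 ± 138 CPM in small intestine (mean ± SD, n = 7). Apoe, a lipoprotein component, came next at 17745 ± 931 CPM in liver and 649 ± 82.3 CPM in small intestine (mean ± SD, n = 7). Trf (transferrin), Ahsg (fetuin) and Apoa2 were among the other leading liver genes. In small intestine Fth1, the ferritin heavy chain, was read at 6728 ± 807 CPM in small intestine and 2394 ± 226 CPM in liver (mean ± SD, n = 7). S100g, the vitamin D-dependent calcium carrier calbindin, was read at 6537 ± 799 CPM in small intestine and 235 ± 208 CPM in liver (mean ± SD, n = 7). Reg1, a secreted lectin, Igha, the constant region of immunoglobulin A, and Prap1, a secreted epithelial protein, followed. The 10 genes with most reads summed over the 7 libraries of a tissue took 14.5% to 16.6% of the reads of each liver library. In the small intestine libraries that share was 10.4% to 12.8%.

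Blood proteins were uniformly higher in liver. All 21 tested members of the plasma protein list passed the 2-fold test in that direction, with a median log2 difference of −7.38 beside 0.016 for all genes. Alb was read at 110.1 to 465 CPM (median 315) in small intestine and 21014 to 33763 CPM (median 24019.7) in liver, a log2 difference of −6.61 ± 0.27 (adjusted p = 3.2e-10). Fgb, the fibrinogen beta chain, had a difference of −7.86 ± 0.27 (adjusted p = 6.3e-11), and Hpx, which binds haem, −7.77 ± 0.22 (adjusted p = 1.5e-11). Hp (haptoglobin), Orm1 (orosomucoid), Fga and Vtn (vitronectin) lay between −7.85 and −7.71 on the log2 scale. The livers and small intestines did not overlap for any of the 21.

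Nitrogen and amino acid handling was divided by enzyme. Of 25 amino acid breakdown genes, 22 were higher in liver (median log2 difference −6.87), among them Gldc of glycine cleavage (−7.82), Bhmt of methionine re-formation (−7.62) and Uroc1 of histidine breakdown (−7.56). In the urea cycle, 5 of 8 genes were higher in liver and 1 in small intestine. Arg1, the arginase of the cycle, had 3.90 to 14.9 CPM (median 7.52) in small intestine and 1074 to 1373 CPM (median 1311) in liver, a difference of −7.22 ± 0.25 (adjusted p = 6.5e-11). Arg2, the mitochondrial arginase, was the member higher in small intestine, with 619 to 849 CPM (median 711) in small intestine and 3.15 to 53.6 CPM (median 10.9) in liver and a difference of 5.67 ± 0.34 (adjusted p = 1.0e-08). The first steps differed less. Cps1, which fixes ammonia, differed by −2.46 ± 0.12 (adjusted p = 1.5e-09) and was read at 379 ± 48.8 CPM in small intestine and 2087 ± 231 CPM in liver (mean ± SD, n = 7). Otc, which follows it, differed by −2.14 ± 0.088 (adjusted p = 3.2e-10).

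The kynurenine pathway, which the title of the series names, turns tryptophan into kynurenine and onward to quinolinate and NAD, with a side branch to kynurenate. Of its 15 tested genes, 13 were higher in liver and 1 in small intestine (median log2 difference −5.71). The first step can be made by any of Tdo2, Ido1 and Ido2. Tdo2, the hepatic dioxygenase, was read at 3.12 to 11.3 CPM (median 9.24) in small intestine and 972 to 1916 CPM (median 1290.2) in liver, a difference of −7.45 ± 0.27 (adjusted p = 9.7e-11). Ido1, the inducible dioxygenase of mucosa and immune cells, ran the other way, with 16.2 to 43.0 CPM (median 37.9) in small intestine and 0 to 3.15 CPM (median 0) in liver. Its difference was 5.80 ± 0.37 (adjusted p = 1.9e-08), or 6.87 without animal 2630, and no liver overlapped the small intestines. Ido2 was higher in liver (log2 −7.72 ± 0.27, adjusted p = 7.7e-11).

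The following steps were higher in liver, with 1 exception. Afmid, the formamidase, differed by −4.13 ± 0.40 (adjusted p = 1.1e-06). Kmo, the hydroxylase that commits kynurenine to the quinolinate branch, was read at 2.64 to 7.79 CPM (median 4.38) in small intestine and 211 to 342 CPM (median 234) in liver, a difference of −5.71 ± 0.19 (adjusted p = 5.2e-11). Kynu, the kynureninase, was read at 3.91 to 10.8 CPM (median 5.94) in small intestine and 139 to 251 CPM (median 193) in liver, a difference of −4.86 ± 0.15 (adjusted p = 3.3e-11). For both, all livers lay far above all small intestines. Haao, which makes the quinolinate precursor, differed by −7.63 ± 0.20 (adjusted p = 6.7e-12), Acmsd, which diverts that precursor from quinolinate, by −6.85 ± 0.27 (adjusted p = 2.3e-10), and Qprt, which consumes quinolinate for NAD, by −7.21 ± 0.21 (adjusted p = 1.8e-11). The transaminases that can form kynurenate were also higher in liver. The log2 difference of Aadat was −6.48 ± 0.23 (adjusted p = 8.7e-11), Kyat3 −5.95 ± 0.13 (adjusted p = 3.2e-12), Kyat1 −3.23 ± 0.11 (adjusted p = 6.0e-11) and Got2 −2.50 ± 0.095 (adjusted p = 1.5e-10). Nadsyn1, the NAD synthetase, was the exception, higher in small intestine by 0.78 ± 0.13 (adjusted p = 0.00017) and below the 2-fold test.

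Glucose and glycogen genes were higher in liver for 12 of 15 members (median log2 difference −3.93). Gys2, the liver glycogen synthase, differed by −8.32 ± 0.27 (adjusted p = 3.4e-11). Pygl, the liver glycogen phosphorylase, differed by −6.01 ± 0.14 (adjusted p = 3.5e-12). Pck1, the first committed enzyme of gluconeogenesis, differed by −4.20 ± 0.23 (adjusted p = 4.2e-09) and was read at 111 ± 73.7 CPM in small intestine and 1877 ± 635 CPM in liver (mean ± SD, n = 7). Khk, which starts fructose breakdown, differed by −0.74 on the log2 scale and did not pass the 2-fold test. It also lost its call at any fold with library size alone (log2 −0.26, adjusted p = 0.131).

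Bile acid and cholesterol genes were mostly hepatic. Of 17 bile acid genes, 14 were higher in liver, among them Cyp8b1, which sets the cholic acid share, with a difference of −8.10 ± 0.26 (adjusted p = 3.4e-11). It was read at 0 to 3.60 CPM (median 1.17) in small intestine and 240.1 to 529.5 CPM (median 380.3) in liver. The canalicular export pump Abcb11 (−7.72), the sinusoidal uptake carriers Slc10a1 (−7.51) and Slco1b2 (−8.07) and the conjugating enzyme Baat (−7.80) had log2 differences of similar size. The 2 members higher in small intestine, Slc51a (5.50) and Slc51b (5.22), encode the subunits of the basolateral bile acid exporter. In cholesterol synthesis 20 of 21 genes were higher in liver, with a median log2 difference of −2.80. Srebf2, the regulator of the pathway, was the remaining member and differed by 0.031 (adjusted p = 0.828), with an SE of 0.12.

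Drug metabolism was divided between the organs by isoform. Of 30 tested genes 19 were higher in liver and 7 in small intestine. Cyp2f2 (−7.75), Cyp1a2 (−7.36), Cyp2e1 (−7.15) and Cyp2d10 (−7.01) lay far into liver on the log2 scale. Cyp4a14, a fatty acid hydroxylase, had a difference of −7.43, or −8.10 without animal 2628. Cyp2c65 and Cyp2c66 (log2 differences 5.79 and 5.97) and Gsta1 (5.64) lay far into small intestine, as did Cyp2b10 (3.63). Multi-mapped reads were not counted, so values within the Cyp2c, Cyp2d, Mup, Ugt2b, Serpina and Try families are uncertain.

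**Figure D3:**
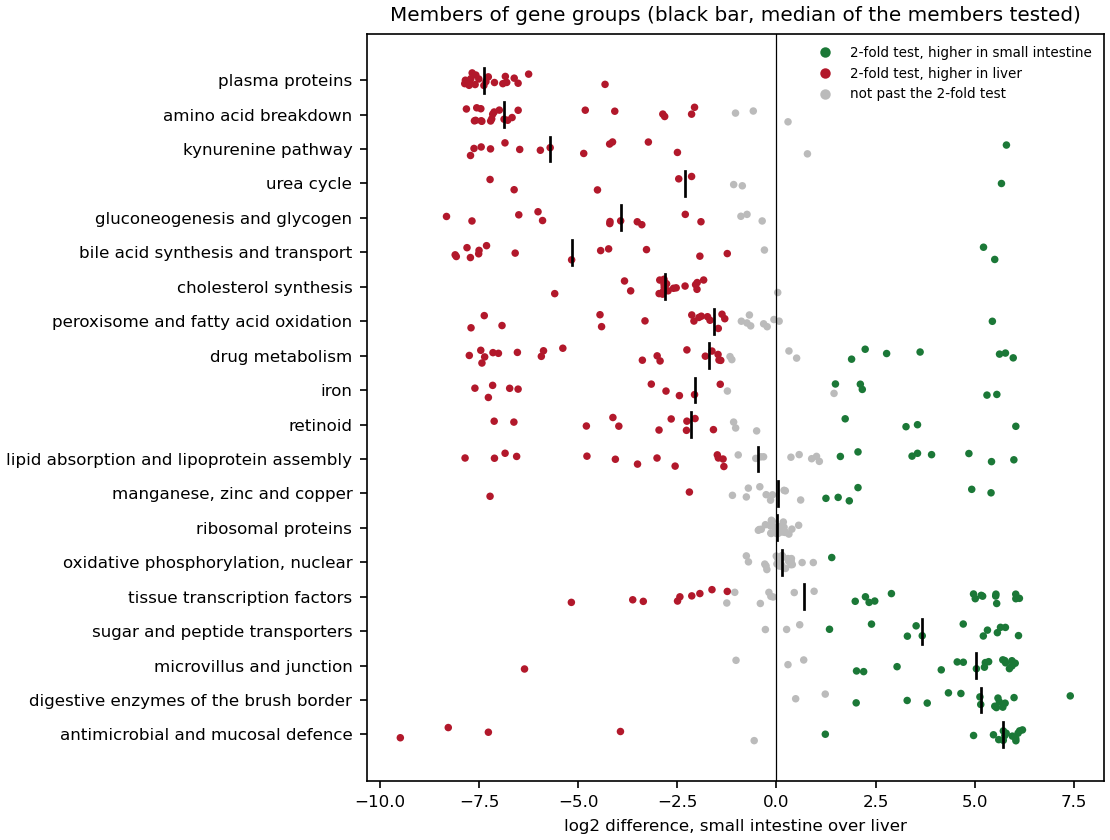
Log2 difference, small intestine over liver, of the tested members of 20 gene groups, 1 point per gene and a black bar at the group median. Plasma proteins and amino acid breakdown sit near −7, brush border enzymes and mucosal defence near 5, and ribosomal proteins and oxidative phosphorylation around 0.

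Genes of digestion and uptake were mostly higher in small intestine. Of 17 brush border digestive enzymes, 15 were higher in small intestine (median log2 difference 5.15). Sis, the sucrase-isomaltase, had 867 to 1669 CPM (median 1023) in small intestine and 1.05 to 73.1 CPM (median 21.7) in liver, a difference of 5.77 ± 0.40 (adjusted p = 4.3e-08). Mep1a, a meprin protease, had 455 reads over the 7 small intestines and 1 over the 7 livers, a small intestine to liver ratio of 289 per scaled library (95% exact binomial interval 51.6 to 11436, for counting error only), and its liver read was in animal 2630. The enteropeptidase Tmprss15, which activates trypsinogen, differed by 5.99 ± 0.35 (adjusted p = 6.7e-09). Dpp4 was read in both organs, with 177 ± 30.6 CPM in small intestine and 128 ± 27.7 CPM in liver (mean ± SD), and did not pass the 2-fold test.

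Of 15 sugar, peptide and amino acid transporters, 12 were higher in small intestine. Slc5a1, the apical sodium-glucose carrier, differed by 5.57 ± 0.31 (adjusted p = 5.1e-09), and Slc15a1, the apical peptide carrier, by 5.77 ± 0.26 (adjusted p = 7.4e-10). Slc15a1 was read at 135 to 190.4 CPM (median 162) in small intestine and 0 to 6.30 CPM (median 2.74) in liver, with no overlap. Slc6a19, the main carrier of neutral amino acids, differed by 5.65 ± 0.25 (adjusted p = 6.7e-10), and Slc7a9, of cystine and basic amino acids, by 6.10 ± 0.21 (adjusted p = 7.1e-11). Slc2a5, the fructose carrier, differed by 3.68 ± 0.21 (adjusted p = 6.3e-09). Slc2a2, the facilitative glucose carrier of the basolateral side of enterocytes and of hepatocytes, was read at 469 ± 74.7 CPM in small intestine and 403 ± 124 CPM in liver (mean ± SD, n = 7). Its difference of 0.26 ± 0.18 (adjusted p = 0.206) did not pass the test, but passed with library size alone and in animals 2572 to 2574 alone. The epithelial framework was also higher in small intestine. There, 17 of 21 microvillus and junction genes passed, with Vil1 (villin) at 5.87 ± 0.39 (adjusted p = 2.8e-08), Cdh17 (liver-intestine cadherin) at 5.94 ± 0.40 (adjusted p = 3.2e-08) and Myo1a, the brush border myosin, at 6.02 ± 0.38 (adjusted p = 1.7e-08) and, without animal 2630, 6.61. Cldn1, a tight junction claudin, was higher in liver (log2 −6.35 ± 0.25, adjusted p = 2.3e-10), and Cldn15, the pore-forming claudin of the gut, in small intestine (log2 5.04 ± 0.26, adjusted p = 2.2e-09).

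Lipid genes split along the route of fat. Of 30 members 8 were higher in small intestine and 13 in liver. Mogat2, which rebuilds triglyceride from absorbed monoglyceride, had 337 to 434 CPM (median 382) in small intestine and 2.63 to 23.3 CPM (median 4.15) in liver, a difference of 5.99 ± 0.32 (adjusted p = 3.2e-09), and 6.60 without animal 2630. Npc1l1, the cholesterol uptake protein, differed by 5.42 ± 0.31 (adjusted p = 5.4e-09), or 6.07 without animal 2630. Apoa4, of chylomicrons, differed by 3.42 ± 0.19 (adjusted p = 5.4e-09). Lcat (−7.85) and Lipc (−6.55), which act on lipoproteins in plasma, and Apoa2 (−6.84) were higher in liver. The transfer protein Mttp, needed for lipoprotein assembly in both organs, was higher in small intestine by 2.06, and Apob, the structural protein of these particles, higher in liver with a log2 difference of −1.33.

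Among related genes of like function, some pairs were divided between the organs and others were not. Of 50 tested genes in the list of related pairs, 20 were higher in small intestine and 18 in liver. Among fatty acid binding proteins, Fabp1 was abundant in both organs, with 2099.8 ± 339 CPM in small intestine and 5315 ± 638 CPM in liver (mean ± SD, n = 7), while Fabp2 differed by 3.91 ± 0.19 (adjusted p = 1.2e-09) and was read at 2339 ± 368 CPM in small intestine and 165 ± 78.9 CPM in liver (mean ± SD, n = 7). Among retinol binding proteins, Rbp4, the plasma carrier, was higher in liver (log2 −7.12 ± 0.24, adjusted p = 4.6e-11) and Rbp2, the enterocyte form, in small intestine (log2 3.27 ± 0.41, adjusted p = 1.2e-05). Gls2, the liver form of glutaminase, was higher in liver (log2 −6.51 ± 0.13, adjusted p = 1.9e-12). The hexokinases Hk2 (log2 1.85 ± 0.16, adjusted p = 4.4e-07) and Hkdc1 (log2 5.68 ± 0.25, adjusted p = 4.7e-10) were higher in small intestine. Mat1a, the hepatic S-adenosylmethionine synthase, differed by −7.16 ± 0.27 (adjusted p = 1.5e-10), while Mat2a, its counterpart in other tissues, differed by −0.027 ± 0.091 (adjusted p = 0.797), with a sign that flipped to 0.46 with library size alone. Pkm, the pyruvate kinase of most tissues, was higher in small intestine (log2 3.78 ± 0.15, adjusted p = 2.4e-10), and Pklr, the isoform of liver, did not pass the test (log2 −0.36 ± 0.19, adjusted p = 0.10), though it did in females alone, in animals 2627 to 2630 alone and without animal 2573. Gluconeogenic Pck1 was higher in liver, and mitochondrial Pck2 in small intestine (log2 1.38 ± 0.13, adjusted p = 7.7e-07). Ldha (0.19) and Ldhb (0.17) had small log2 differences, with adjusted p = 0.208 and 0.364, and passed with library size alone. Ldha also passed in females alone, without animal 2627 (0.31) and without 2627 and 2630.

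Defence genes were mostly higher in small intestine. Of 19 antimicrobial and mucosal genes, 14 were higher in small intestine and 4 in liver. Reg3g, a lectin against Gram-positive bacteria, had 162 to 2473 CPM (median 1193) in small intestine and 6.65 to 48.5 CPM (median 10.9) in liver, a difference of 6.2 ± 0.46 (adjusted p = 6.9e-08). Lyz1, the Paneth lysozyme, differed by 5.79 ± 0.39 (adjusted p = 3.1e-08), Muc2, the secreted mucin, by 5.76 ± 0.32 (adjusted p = 4.5e-09), and the membrane mucins Muc3 and Muc13 by 6.09 and 6.13 on the log2 scale. The 4 members higher in liver were the acute-phase serum amyloid genes Saa1 and Saa2, the iron hormone Hamp, and Lcn2. Igha was read at 2626 to 7425 CPM (median 5152) in small intestine and 41.0 to 863 CPM (median 147) in liver, a difference of 4.97 ± 0.38 (adjusted p = 9.4e-08). Jchain, which joins immunoglobulin A dimers, differed by 5.23 ± 0.35 (adjusted p = 3.1e-08). Ighm, the heavy chain of immunoglobulin M, did not pass the test (log2 0.15 ± 0.26, adjusted p = 0.620), and did so without animal 2573 (0.47) and with library size alone (0.63). All 9 tested T and NK cell markers were higher in small intestine, among them Cd8a (log2 4.66 ± 0.33, adjusted p = 4.6e-08) and Gzma (5.21, or 5.88 without animal 2630).

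Other cell types of the 2 organs could be followed by their markers. All 8 tested goblet cell markers, 9 enteroendocrine markers and 8 smooth muscle markers were higher in small intestine. Tph1, which makes gut serotonin, had 2 reads over the 7 livers, a small intestine to liver ratio of 167 per scaled library (95% exact binomial interval 46.0 to 1383). Gip, a gut hormone, differed by 4.91 ± 0.21 (adjusted p = 4.3e-10), and Myh11, smooth muscle myosin, by 5.20 ± 0.17 (adjusted p = 4.5e-11). Of 9 tested crypt and dividing cell genes 7 were higher in small intestine, with Olfm4, of crypt base cells, at 5.50 ± 0.26 (adjusted p = 1.1e-09). Mki67, a proliferation marker, was read at 85.0 to 129 CPM (median 105) in small intestine and 2.60 to 10.5 CPM (median 6.30) in liver. Lgr5, the stem cell receptor, which also marks hepatocytes near the central vein, had a log2 difference of −0.045 (adjusted p = 0.853). In liver, 7 of 8 Kupffer cell markers and all 6 sinusoidal endothelial markers were higher. Clec4f, specific to Kupffer cells, differed by −8.06 ± 0.23 (adjusted p = 1.5e-11), and Stab2, a scavenger receptor of sinusoids, by −6.15 ± 0.18 (adjusted p = 1.4e-11). All 5 haemoglobin and erythroid genes tested were higher in liver, Hbb-bs with a difference of −2.23 ± 0.17 (adjusted p = 7.9e-08). Fibroblast genes were mixed: 5 of 7 were higher in small intestine and 2 in liver at any fold, with Pdgfra at 1.91 ± 0.15 (adjusted p = 1.5e-07) and Dcn (decorin) at −1.91 ± 0.17 (adjusted p = 5.2e-07).

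**Figure D4:**
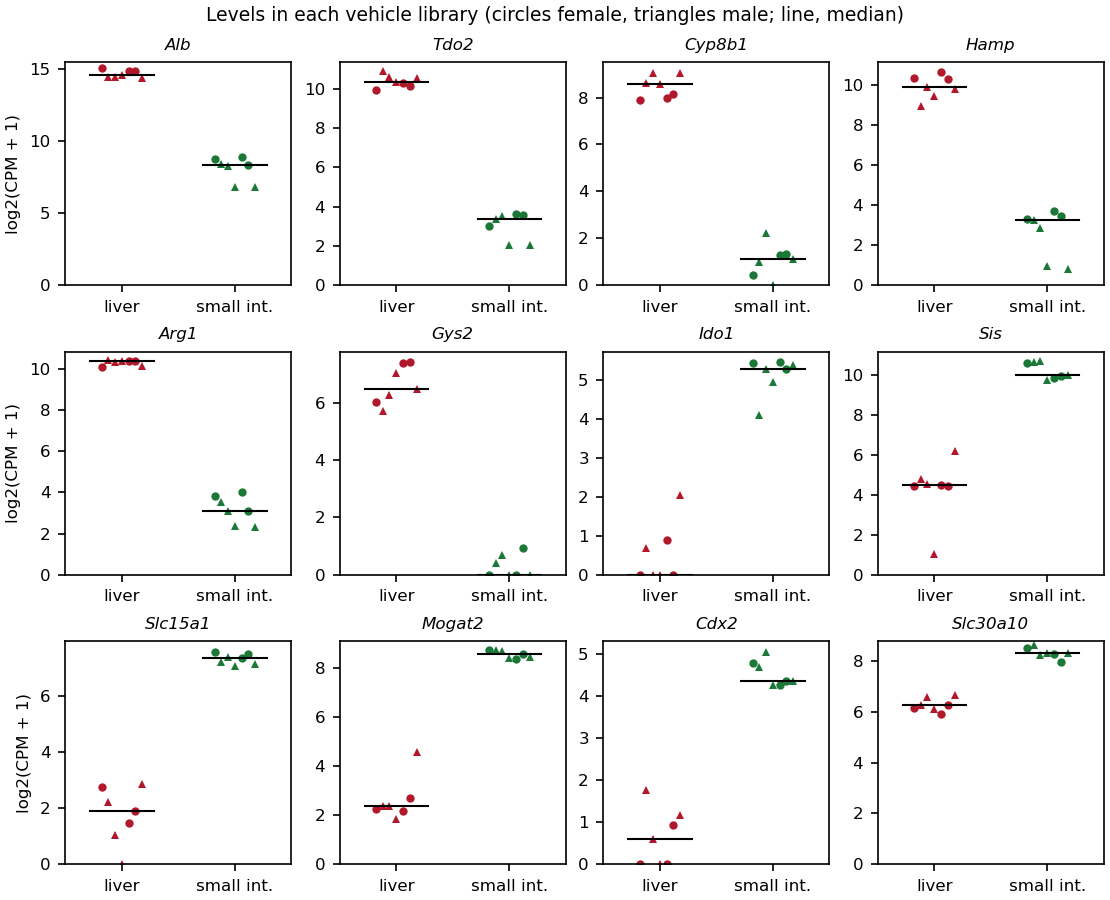
Level of 12 genes, as log2(CPM + 1), in each of the 7 liver (red) and 7 small intestine (green) libraries; lines are medians. The libraries of the 2 tissues do not overlap for any of the 12; Hamp, Alb and Tdo2 are lowest in the small intestines of animals 2627 and 2630, and Mogat2 is highest among livers in animal 2630.

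Metal handling differed gene by gene. Dietary iron is reduced and taken up at the apical side of the enterocyte, exported through ferroportin and oxidised by hephaestin, and the liver controls that export with the hormone hepcidin. Of 17 iron genes 5 were higher in small intestine and 10 in liver. Cybrd1, the apical ferric reductase, had 83.0 to 354 CPM (median 137) in small intestine and 1.21 to 8.19 CPM (median 2.17) in liver, a difference of 5.56 ± 0.26 (adjusted p = 9.6e-10). The carrier Slc11a2 (DMT1) differed by 2.12 ± 0.13 (adjusted p = 1.6e-08), ferroportin (Slc40a1) by 2.16 ± 0.16 (adjusted p = 9.2e-08), and Heph by 5.31 ± 0.34 (adjusted p = 2.0e-08), or 5.89 without animal 2630. Hamp, which encodes hepcidin, was read at 0.779 to 12 CPM (median 8.58) in small intestine and 494 to 1591 CPM (median 937) in liver, a difference of −7.27 ± 0.34 (adjusted p = 9.5e-10). Tfr2, which senses iron-loaded transferrin, differed by −7.16 ± 0.16 (adjusted p = 3.0e-12), and Cp (ceruloplasmin), the plasma ferroxidase, by −6.73 ± 0.15 (adjusted p = 3.5e-12). The ferritin chains went opposite ways, with Fth1 at 1.49 ± 0.10 (adjusted p = 3.3e-08) and Ftl1 at −1.42 ± 0.088 (adjusted p = 1.4e-08). Tfrc, the transferrin receptor, was higher in small intestine (log2 1.45 ± 0.27, adjusted p = 0.00032) but did not pass the 2-fold test.

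Of 18 manganese, zinc and copper genes, 6 were higher in small intestine and 2 in liver. Slc30a10, the Mn exporter, was read at 252 to 401 CPM (median 317) in small intestine and 59.1 to 99.5 CPM (median 75.6) in liver. Its difference of 2.06 ± 0.12 (adjusted p = 9.8e-09) is a 4.16-fold higher level in small intestine, and the 7 small intestines lay above all 7 livers. Slc39a14, which takes Mn from blood into cells, was read at 199.6 to 277 CPM (median 228) in small intestine and 155 to 357 CPM (median 264) in liver and did not pass the test (log2 −0.15 ± 0.15, adjusted p = 0.394). Slc39a8, which recovers Mn from bile, was higher in liver, with a difference of −2.20 ± 0.15 (adjusted p = 3.3e-08). It was read at 6.93 to 10.4 CPM (median 8.41) in small intestine and 25.8 to 56.7 CPM (median 40.1) in liver. The zinc transporters Slc39a5 (log2 4.92 ± 0.27, adjusted p = 3.9e-09), Slc30a2 (log2 5.41 ± 0.22, adjusted p = 3.4e-10) and Slc39a4 (log2 1.25 ± 0.12, adjusted p = 1.1e-06) were higher in small intestine. The metallothioneins Mt1 and Mt2 did not pass the test, with Mt2 at a log2 difference of −0.71 (adjusted p = 0.124). Mt2 passed without animal 2630 (−0.97), in animals 2572 to 2574 alone, with no low-count filter and with no replicate block. Mt1 ranged from 78.1 to 1879 CPM over the livers and from 274 to 403 CPM over the small intestines, a log2 difference of −0.26 ± 0.38 (adjusted p = 0.547). Arg1, whose enzyme holds a Mn centre, and Sod2, the mitochondrial Mn superoxide dismutase (log2 −1.11 ± 0.083, adjusted p = 7.9e-08), were both higher in liver, but Sod2 did not pass the 2-fold test. Arg2, the other arginase, was higher in small intestine (log2 5.67), as given above.

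Transcription factors of the 2 epithelia differed as well. Of 32 tested transcription factors, 15 were higher in small intestine and 9 in liver. Cdx2, the master factor of intestinal identity, had 18.1 to 32.1 CPM (median 19.5) in small intestine and 0 to 2.42 CPM (median 0.519) in liver, a difference of 4.97 ± 0.36 (adjusted p = 6.0e-08). Cdx1 (5.55, or 6.81 without animal 2630), Isx (6.04, or 6.82), Elf3 (6.03, or 6.66), Klf4 (5.16), Klf5 (5.53) and Gata5 (5.53) had log2 differences of like size. Vdr, the vitamin D receptor, differed by 6.13 ± 0.38 (adjusted p = 1.4e-08), beside the high level of its target S100g. Hnf4g was higher in small intestine (log2 5.01 ± 0.20, adjusted p = 2.3e-10), whereas Hnf4a was read at 391 ± 37.3 CPM in small intestine and 519 ± 56.8 CPM in liver (mean ± SD, n = 7), with a difference of −0.41 ± 0.10 (adjusted p = 0.00202) that turned to 0.076 with library size alone. In liver, Prox1 (log2 −5.17 ± 0.12, adjusted p = 3.5e-12), Cebpa (log2 −3.62 ± 0.083, adjusted p = 3.5e-12) and Foxa2 (log2 −3.36 ± 0.17, adjusted p = 1.8e-09) were higher. Creb3l3 (−0.14), Hes1 (−0.084) and Sox9 (0.45) did not pass the test. With library size alone Creb3l3 and Hes1 turned to 0.34 and 0.40 and passed, as did Sox9 (0.93). Sox9 also passed without animal 2574 (0.63), without animals 2627 and 2630, with upper-quartile scaling, with no low-count filter and in females alone, and Hes1 in females alone.

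Promoter letters of 5 genes that mark the division are shown because factors of both organs were among the genes that differed. Each line gives the 150 bases before the transcription start on the gene's strand, from RefSeq promoters of build GRCm38.p6, which is not the build of the counts. Capitals mark matches on either strand to TTTATG (CDX), AGATAA (bound by GATA factors), CAAAGTCC (HNF4) or TTGCNNAA (C/EBP).
Alb (chr5:90460720-90460869, plus strand): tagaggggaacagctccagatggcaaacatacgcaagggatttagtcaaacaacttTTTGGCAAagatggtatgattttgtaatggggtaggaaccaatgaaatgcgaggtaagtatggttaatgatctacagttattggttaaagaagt
Tdo2 (chr3:81975729-81975878, minus strand): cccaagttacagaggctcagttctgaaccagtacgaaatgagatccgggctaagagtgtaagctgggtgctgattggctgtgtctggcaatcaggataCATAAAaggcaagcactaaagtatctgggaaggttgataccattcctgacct
Sis (chr3:72967864-72968013, minus strand): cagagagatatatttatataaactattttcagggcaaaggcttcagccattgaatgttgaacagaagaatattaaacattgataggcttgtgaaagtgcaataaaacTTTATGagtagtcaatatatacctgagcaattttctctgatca
Fabp2 (chr3:122894922-122895071, plus strand): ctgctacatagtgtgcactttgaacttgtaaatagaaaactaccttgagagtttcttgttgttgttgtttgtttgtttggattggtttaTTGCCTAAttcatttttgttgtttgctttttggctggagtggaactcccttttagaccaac
Fabp1 (chr6:71199729-71199878, plus strand): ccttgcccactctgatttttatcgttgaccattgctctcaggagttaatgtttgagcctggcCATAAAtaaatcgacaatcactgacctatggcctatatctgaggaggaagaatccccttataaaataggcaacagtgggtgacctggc
In these 150 bases Alb held a C/EBP match from position −94, Sis held TTTATG from −43, and Fabp1, read in both organs, held a CDX match from −88. Tdo2 held a CDX match from −52 and Fabp2 a C/EBP match from −61. Over the 250 bases before the starts of 9232 of the 11777 tested genes, in 11852 windows, TTTATG was held by 6.39%, AGATAA by 6.25%, CAAAGTCC by 1.44% and TTGCNNAA by 8.15%. For genes past the 2-fold test in small intestine the shares were 7.93%, 7.93%, 2.27% and 7.83%, and in liver 7.73%, 6.96%, 2.41% and 13%. The motifs were counted separately on both strands, whether or not they overlapped. A match is a run of letters, not a bound site.

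Shared machinery differed little. Of 29 ribosomal protein genes, edgeR's 2-fold test passed 0, and their median log2 difference was 0.021. At any fold 9 passed, 5 of them higher in small intestine, while 10 had an unadjusted p below 0.05 and DESeq2 called 11. Of 26 nuclear genes of oxidative phosphorylation 1 passed, Cycs (cytochrome c) at 1.39 ± 0.11 (adjusted p = 1.1e-07), and the median was 0.15. At any fold, 11 of the 26 were higher in small intestine and 5 in liver, against 38.5% and 37.7% of all genes. The 6 well-read genes with the smallest differences were P4hb (protein disulphide isomerase), Rpl29, Rpl8, Hnrnpu, Sdha and Rps20. P4hb had 1329.8 ± 137 CPM in small intestine and 1344 ± 253 CPM in liver (mean ± SD, n = 7), and Hnrnpu, an RNA binding protein, had 278 ± 20.4 CPM in small intestine and 278 ± 19.8 CPM in liver (mean ± SD, n = 7). With library size alone their log2 differences were 0.48 and 0.49, both past the test.

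The tissue difference itself differed between the sexes for a small set of genes. The tissue by sex term passed for 120 of 11777 genes (1.02%), with the log2 of small intestine over liver larger in males for 57 (0.484%) and smaller for 63 (0.535%). In 109 of the 120 the male to female gap was larger in liver than in small intestine, with 61 of these higher in male and 48 in female liver. Of the 18 tested genes in the list of growth hormone and sex-biased liver genes, 9 were among the 120. Cyp7b1, an oxysterol hydroxylase, averaged 48.3 ± 8.09 CPM in female and 751 ± 278 CPM in male liver, and 8.15 ± 1.27 and 7.46 ± 2.84 CPM in female and male small intestine. Its term was −4.09 ± 0.28 (adjusted p = 2.6e-05). Gstp1, a glutathione transferase, averaged 71.6 ± 11.6 CPM in female and 704 ± 122 CPM in male liver, and 48.1 ± 10.7 and 57.2 ± 7.46 CPM in female and male small intestine, a term of −3.04 ± 0.18 (adjusted p = 9.3e-06). C6, of the complement attack complex, averaged 57.9 ± 3.17 CPM in female and 892 ± 310.3 CPM in male liver, and 10.5 ± 1.14 and 12.8 ± 1.67 CPM in female and male small intestine, a term of −3.62 ± 0.30 (adjusted p = 0.00016). In each of the 3 genes the 4 male livers lay above the 3 female livers, and the small intestines of the sexes overlapped. Ugt2b38, a glucuronosyltransferase, and Nat8, an acetyltransferase, were higher in small intestine than in liver in both sexes, with the smaller gap in males. For Ugt2b38 it was log2 4.95 in females and 1.07 in males, and for Nat8 log2 3.93 in females and 1.61 in males. 9030619P08Rik was the one of the 10 genes with the smallest p that was higher in female liver. It averaged 197 ± 76.9 CPM in female and 20.8 ± 6.60 CPM in male liver, and 5.15 ± 1.71 and 4.35 ± 1.79 CPM in female and male small intestine, a term of 3.04 ± 0.35 (adjusted p = 0.00170).

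The sex term rested on few animals, and its counts moved with them. Without the pair of animal 2630 it was passed by 103 and 126 genes, and without that of animal 2628 by 6 and 17. Without animal 2627, 75 of the 120 still passed. The pancreatic genes Prss2, Cpa1, Try4, Ctrb1, Ctrl, Pnlip, Pnliprp1 and Cel were among the 120 with all animals, as was 2210010C04Rik. For each of them the log2 of small intestine over liver was larger in males. None of them passed without animal 2627, with edgeR adjusted p for the sex term from 0.278 (Prss2) to 0.717 (Ctrl). The small intestine of animal 2627 held 1575 CPM of Prss2 against 9.02 to 12.7 CPM in the others. The 10 genes named by smallest p passed without animal 2627 too, with adjusted p at most 0.00457.

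**Figure D5:**
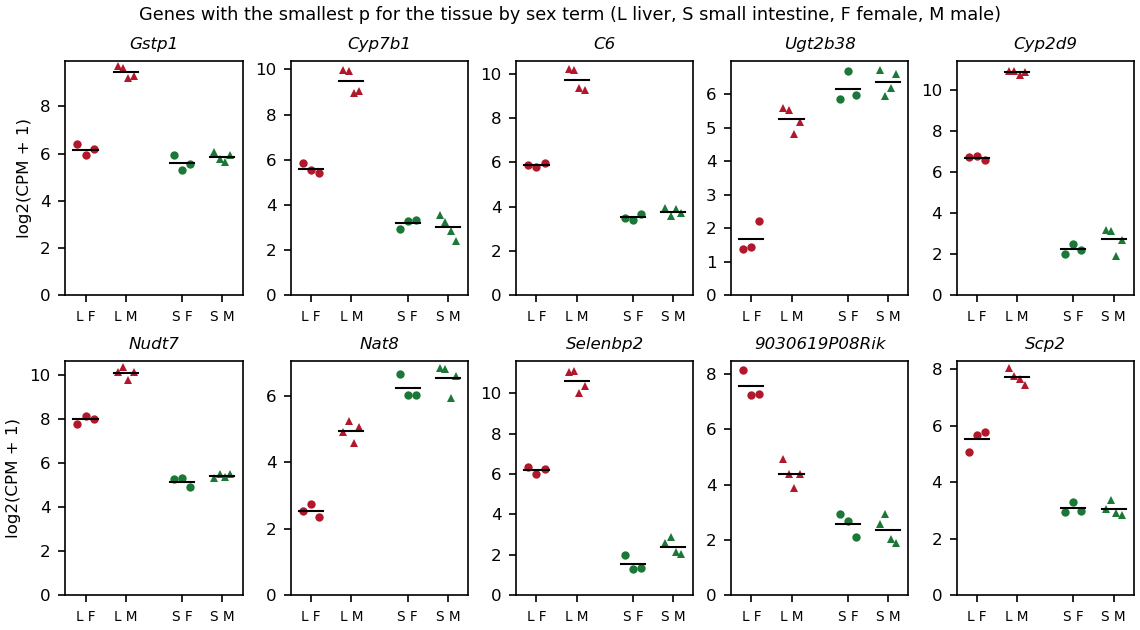
Level, as log2(CPM + 1), of the 10 genes with the smallest p for the tissue by sex term, by tissue and sex (3 female and 4 male animals; lines are means). In 9 of the 10 the male livers lie above the female livers, in 9030619P08Rik below, and the small intestines of the sexes lie close together.

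The spread between the libraries of the 7 animals was larger in liver for the median gene. Scaled library sizes were smaller in liver, so that a given CPM rests on fewer reads there. The part of counting noise in the spread was not tested. Over genes averaging at least 10 CPM, the median standard deviation of log2(CPM + 1) across the 7 animals was 0.255 in liver (8915 genes) and 0.192 in small intestine (9067 genes). The most variable liver genes included Sult2a2, Cyp2a4, Cyp2b9, Mup7 and A1bg. Cyp2a4, a steroid hydroxylase, had 706 ± 188 CPM in the 3 female livers and 13.3 ± 3.42 CPM in the 4 males (mean ± SD), and Mup7, a urinary protein, ran the other way, with 0.594 ± 0.515 and 70.6 ± 21.7 CPM. In small intestine the most variable genes were Xist, the non-coding RNA of the inactive X chromosome, and Cela3b, 2210010C04Rik, Try5, Try4 and Ctrb1, all highest in animal 2627. Xist was read at 208 to 324 CPM in the 3 female and 5.01 to 6.27 CPM in the 4 male small intestines and fitted the sex label of every animal. Saa1 and Saa2, acute-phase products of hepatocytes, varied among livers from 101 to 2762 and from 39.1 to 2075 CPM, with the highest values of both in animal 2627. They had differences of −8.28 ± 0.30 (adjusted p = 1.1e-10) and −9.49 ± 0.25 (adjusted p = 8.9e-12), and the liver of each animal lay above its small intestine.

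The largest differences were ranked among genes past the 2-fold test. Higher in liver, with at least 100 CPM there, were Saa2, Serpina4-ps1, Fam25c, Cyp2c69, Serpina12, Mug2, Sec14l4, Hsd3b5, Ces3b, Mup11, Gys2 and Saa1, with log2 differences from −9.49 to −8.28. Serpina12 (vaspin) had 0 to 1.32 CPM (median 0.364) in small intestine and 49.8 to 423 CPM (median 302) in liver. Higher in small intestine, 7 of the 12 leading genes were pancreatic or digestive enzyme genes high in animal 2627: Try4 (7.31), Ctrb1 (7.29), Cpa1 (7.19), Pnliprp1 (7.0), Prss2 (6.94), Rnase1 (6.74) and Ctrl (6.40). Without that animal their log2 differences were 3.57, 3.64, 3.4, 3.48, 3.44, 5.40 and 2.80, and all 7 still passed the test at any fold. Without animal 2572, Ctrb1, Cpa1, Pnliprp1, Prss2 and Ctrl had 7.95, 8.23, 7.72, 7.88 and 7.19. Without animal 2628, Ctrb1, Pnliprp1 and Prss2 had 7.95, 7.72 and 7.68. Among the others, Slc13a1, the sulphate carrier, had 441 to 1075 CPM (median 638) in small intestine and 2.63 to 28.4 CPM (median 6.89) in liver, a difference of 6.21 ± 0.37 (adjusted p = 1.0e-08). Adh6a, an alcohol dehydrogenase, differed by 6.38 (7.09 without animal 2630), AY761184 by 6.27 (7.18), and Baiap2l2, an epithelial membrane protein, by 6.32 (7.04). Baiap2l2 was nearly constant over the small intestines, at 110.2 to 121 CPM.

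The comparison was repeated in animals given Mn. In 7 Mn animals with both tissues, 4502 of 11497 genes (39.2%) were higher in small intestine and 4311 (37.5%) in liver, together 76.7%. Of the 8697 genes called in vehicle and tested in Mn animals, 7931 (91.2%) were called in the same direction, which is 90.0% of the calls in the Mn animals, and 6 were called in opposite directions. The log2 differences of Tdo2, Ido1, Slc30a10 and Slc39a14 in the Mn animals were −8.15, 7.64, 2.71 and 0.46, beside −7.45, 5.80, 2.06 and −0.15 in vehicle. These animals had received Mn, so they repeat the organ contrast and not the baseline, and no difference between the treatments was tested here.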

How the data were processed

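The deposited values are counts of 3′ TagSeq reads (single-end) per gene in 1 table per library, made by the authors with STAR 2.7.10b and HTSeq 0.2.0 on GRCm39, per the submitters' processing notes. Those notes also name FastQC 0.12.0, R 4.2.2 and DESeq2 1.12.3, with no role given. The handling of molecular identifiers and of duplicates is not given in these sources. Each table lists 55416 gene identifiers, of which 52083 matched a symbol in the reference table and 3333 did not. The 92 spike-in entries and 5 summary entries were set aside before scaling. Multi-mapped reads, 29.1% to 34.8% of a library, were not assigned to genes, and 60.7% to 66.1% were.

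Genes were kept with edgeR's low-count filter (minimum count 10, minimum total 15) and scaled with TMM, with factors of 0.796 to 0.886 in liver and 1.14 to 1.23 in small intestine. The main test was edgeR 4.0.16's quasi-likelihood test in R 4.3.3 with the animal as a block and tissue as the contrast, with Benjamini-Hochberg adjustment over all genes tested and a threshold of 0.05. The 2-fold test is edgeR's test against a minimum fold of 2. The tissue by sex term was tested with the animal block kept. Libraries of 1 animal share its number in the labels, and over 7581 genes the paired deviations from the tissue means correlated at 0.160 to 0.390. No pair of libraries of a tissue came near sampling noise (lowest chi-square per gene 2.95 in liver and 2.77 in small intestine). The fits were tested on simulated data. Alternatives were DESeq2 1.42.0, other scalings, no filter, no replicate block, each animal left out, single sexes, the runs of animal numbers 2572 to 2574 and 2627 to 2630, a minimum fold of 4 and a pseudocount of 5. Leaving out animals 2627 and 2630 together was chosen after seeing the data.

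The members and gene lists were chosen with earlier results of these data known. Genes were named by a rule. It takes the 12 largest differences in each direction past the 2-fold test at 100 CPM or more, and the 8 most abundant genes of each tissue. It takes up to 6 members with the largest difference from each list, and all members of the kynurenine, metal, paralogue, intestinal region and transcription factor lists. It also takes the 10 smallest p for the sex term, the 6 largest spreads in each tissue, and the 6 smallest differences among genes of at least 200 CPM. Slc51a, Slc51b, Cyp2c65, Cyp2c66, Gsta1, Cyp2b10, Mttp, Apob, Srebf2, Dpp4, Lcn2, Lgr5, Cox4i1, Rpl13, the genes whose promoters are printed and the genes of the closing observations were named after their values were seen. Some genes that the rule takes are not reported here. Symbols and promoter windows come from RefSeq tables of GRCm38.p6, so no other coordinates are given.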

Additional observations from a re-analysis of the deposited data

Results flagged for a closer look

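The genes and marker sums described above, by tissue, gave 60 groups of 7 libraries. Of these groups, 12 held a library set apart from the other 6 by a wide gap. In 10 of the 12 it was the liver of animal 2630, whose library held gut genes at a higher level than the other livers: 73.1 CPM of Sis, 23.3 of Mogat2, 17.6 of Lct, 28.4 of Slc13a1, 53.6 of Arg2, 8.19 of Cybrd1, 3.15 of Ido1, 48.5 of Reg3g, 863 of Igha, and 786 CPM of summed Paneth markers. The small intestine of animal 2627 held 9581 CPM of summed pancreatic acinar markers. The small intestine of animal 2574 held 3.60 CPM of Cyp8b1. What set these libraries apart was not tested.

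The tissue difference differed between the sexes, by the tissue by sex term, for 10 genes named by smallest p. The term (log2, male minus female) was −4.09 for Cyp7b1, −3.04 for Gstp1, −3.62 for C6, −3.85 for Ugt2b38, −3.54 for Cyp2d9, −1.85 for Nudt7, −2.31 for Nat8, −3.34 for Selenbp2 and −2.23 for Scp2, and 3.04 for 9030619P08Rik. In the 9 with a negative term all 4 male livers lay above all 3 female livers, and for 9030619P08Rik all 4 lay below.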

How the results depend on the processing

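Without the replicate block, with sex as a covariate, 4444 genes were higher in small intestine and 4369 in liver (2059 and 1795 past 2-fold), and of the named genes 1 changed its call, Mt2, at a log2 difference of −1.07 without the block. Leaving out 1 animal gave 4279 to 4462 and 4221 to 4382 genes, and 2010 to 2112 and 1787 to 1832 past 2-fold. Library size alone gave 6746 (57.3%) and 2685 (22.8%), and 3046 and 1305 past 2-fold, and a minimum fold of 4 gave 1190 and 973. For the sex term, leaving out 1 animal gave 6 to 103 genes larger and 17 to 126 smaller in males, leaving out animals 2627 and 2630 gave 184 and 211, no filter gave 291 and 254, and library size alone gave 57 and 42. The cause of the shifts with scaling and with animals left out was not tested.

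Over 172 results for named genes and 3041 alternative values, 25 gained the call and 8 lost it. A further 4 changed sign with a call in at least 1 of the 2 fits compared. The other 3004 kept their side of the threshold. Sign changes between 2 uncalled values were left among these, as for Hes1 without animal 2574 (0.023). Without animal 2627, Mt1 (0.094) and Ighm (−0.035) also changed sign, uncalled in both fits. The 4 sign changes with a call were with library size alone: Creb3l3 0.34, Hes1 0.40, Hnf4a 0.076 and Mat2a 0.46. The lost calls were of Khk and Xist, each with library size alone and in animals 2572 to 2574 alone, and of the sex term of Prss2. That term lost its call without animal 2572, 2627 or 2628 and without 2627 and 2630. The sex terms of the other pancreatic genes were not among these results. A pseudocount of 5 gave a median spread of 0.171 in small intestine and 0.226 in liver. At 1851623 to 2945552 assigned reads per library, genes of a few CPM rest on few reads.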

Other observations

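Among the 120 genes whose tissue difference differed between the sexes, the values of 9 more are given, single genes named after their values were seen, which stand for no group. The first 5 were higher in male liver. Sec23b, a coat protein of vesicles leaving the endoplasmic reticulum, averaged 32.0 ± 4.38 CPM in female and 77.6 ± 11.5 CPM in male liver (SD, n = 3 and 4), beside 67.8 ± 12 and 61.3 ± 6.03 CPM in small intestine, a term of −1.41 ± 0.17 (edgeR adjusted p = 0.0028). Sec24d, another such coat protein, had a term of −1.09 ± 0.15 (edgeR adjusted p = 0.0076), and Hyou1, a chaperone of that compartment, −1.37 ± 0.21 (edgeR adjusted p = 0.0096). Gfpt1 and Gmppb, which make sugar donors for glycosylation, had terms of −1.26 and −1.64. All 5 passed without animal 2627 too.

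The other 4 were higher in female liver. Cux2, a transcription factor, averaged 35.5 ± 10.8 CPM in female and 2.82 ± 0.688 CPM in male liver, a term of 3.74 ± 0.55 (edgeR adjusted p = 0.0079). Prlr, the prolactin receptor, averaged 135 ± 19.1 and 35.2 ± 9.96 CPM, with 57.5 ± 7.51 and 55.2 ± 9.51 CPM in small intestine. Its log2 difference was −1.22 in females and 0.64 in males. Nr1i3, the nuclear receptor CAR, averaged 234 ± 17.9 CPM in female and 102 ± 6.22 CPM in male liver. In female and male small intestine it averaged 46.9 ± 7.28 and 48.7 ± 4.01 CPM. Cyp2b10, a known target of CAR, averaged 49.4 ± 23.4 and 7.48 ± 6.62 CPM in female and male liver. A link between the levels of these genes was not tested. The term of Cyp2b10 was 3.09 ± 0.49 (edgeR adjusted p = 0.0118), with 231 ± 59.1 and 297 ± 87.7 CPM in female and male small intestine.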
